A study of Saccharomyces cerevisiae with 6 samples.

Results

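The small ribosomal subunit processome is the large particle that forms on the nascent ribosomal RNA precursor in the nucleolus and cuts and folds it towards 18S rRNA, the RNA of the small ribosomal subunit. The U3 snoRNA at its centre is carried by the box C/D proteins, and the protein subcomplexes UtpA and UtpB join the front of the transcript before later factors, helicases and modifying enzymes. In budding yeast these genes belong to the ribosome biogenesis regulon, a large set of genes that is usually transcribed together and follows growth and nutrient supply.

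The members were 43 genes for processome and box C/D proteins, chosen by gene symbol, by a rule that uses no measured value. All 43 were found among the 5449 Saccharomyces cerevisiae genes of the array, each read by 1 probe set, and all 43 lay above background on all 6 arrays. They were sorted by role into 6 groups, which are UtpA, UtpB, the box C/D and U3 proteins, the Mpp10 module, enzymes with their partners, and other assembly factors.

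The cells were of strain VTT C-10883, kept in anaerobic chemostats, which are cultures fed continuously with fresh medium. In 3 biological replicates the feed had been changed to medium holding furfural and 5-hydroxymethylfurfural (HMF), aldehydes that form when plant sugars break down and that inhibit growth, and 3 further replicates had no inhibitors. The labels state neither the dose nor the time after the change nor the dilution rate, nor whether the cultures without inhibitors were the same vessels before it. Values are log2 signals of Affymetrix arrays, and differences are inhibitors minus no inhibitors, so a difference of 1 is a doubling. A gene was called higher or lower when its Benjamini-Hochberg adjusted p in limma, taken over all 5449 genes, was under 0.05.

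Over all genes, r was 0.998 to 0.999 between arrays of the same group and 0.989 to 0.994 between arrays of different groups, as a description of the libraries. Of 7 genes listed as a check on the anaerobic growth, all 7 lay above background on every array, as did 5346 of the 5449 genes. Of these 7, 4 were called higher with inhibitors (19.9% of all genes). They were ANB1 at 0.67, AAC3 at 0.64, DAN1 at 0.34 and TIR3 at 0.22. COX5B was called lower at -0.22 (22.3% of all genes), and TIR1 and HEM13 were not called. Signals are normalized within the set of arrays, so the total RNA of a cell was not measured, and a change in every cell cannot be told apart from a change in some of them.

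Most processome genes differed little in level between the cultures. Of the 43 members, 8 were called higher with inhibitors, 3 were called lower and 32 were not called, where 42.2% of all genes were called in either direction. The share called higher was 18.6%, against 19.9% of all genes. The share called lower was 6.98%, against 22.3% of all genes. The members' median log2 fold change was 0.0225, against -0.0068 over all genes, and 25 of 43 lay above 0 (47.6% of all genes). KRR1 had the largest rise (log2 fold change 0.50, SE 0.06, n = 3 arrays each) and UTP20 the largest fall (log2 fold change -0.30, SE 0.04), and 0 members reached a called rise of 1.5-fold (1.34% of all genes). The median size of a member's difference, in either direction, was 0.07 on the log2 scale, against 0.12 over all genes. The groups did not overlap for 14 members (55.4% of all genes), with inhibitor arrays all above in 10 (26.1% of all genes) and all below in 4 (29.3% of all genes). Without no-inhibitor replicate 2 the counts were 5 higher and 5 lower, and without no-inhibitor replicate 3 they were 5 higher and 3 lower. Over all genes, too, fewer were called in each direction whichever array was left out.

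**Figure D1:**
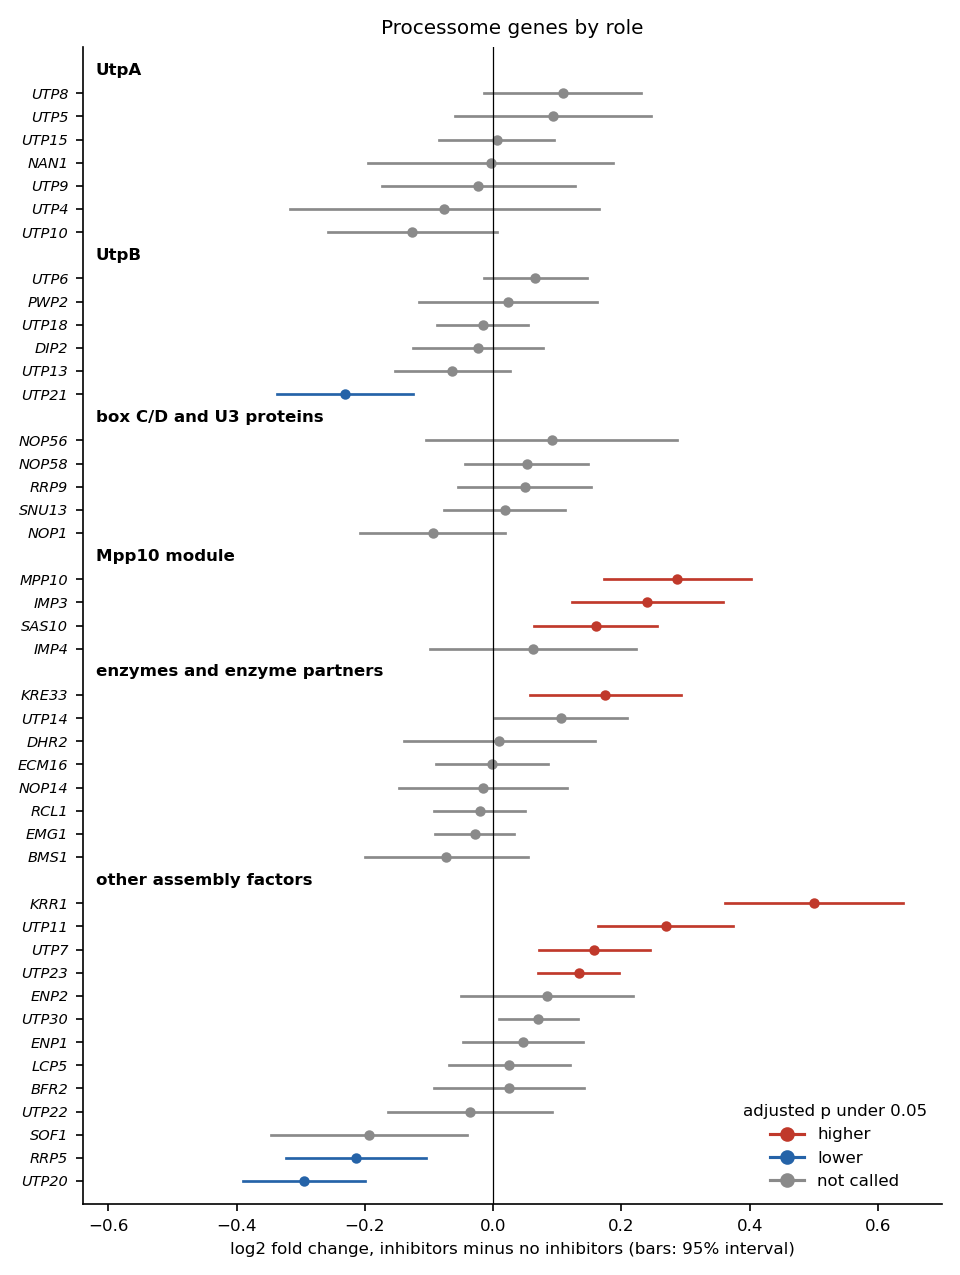
Log2 fold change (inhibitors minus no inhibitors, horizontal axis) of each of the 43 processome genes, grouped by role down the page, with 95% intervals from limma as bars. Red marks the 8 genes called higher, blue the 3 called lower and grey the 32 not called. 3 of the 4 Mpp10 module genes are red, while UtpA and the box C/D proteins are all grey. Over all genes 19.9% were called higher and 22.3% lower.

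UtpA is the first subcomplex to bind the 5' external transcribed spacer, and some of its members are also tied to transcription of ribosomal DNA. None of its 7 genes was called (42.2% of all genes). Their log2 fold changes ran from -0.13 for UTP10, a large HEAT-repeat protein gene, to 0.11 for UTP8, with a median of -0.0041. UTP10 gave signals of 8.39, 8.46 and 8.40 with inhibitors, against 8.59, 8.43 and 8.60 without. Both of the higher values without inhibitors lay above every inhibitor array, and the groups overlapped through replicate 2. Its adjusted p in limma was 0.11, and 0.0197 without no-inhibitor replicate 2 (log2 fold change -0.18). That was the only call for UTP10 under 14 alternative ways of processing, where its adjusted p reached 0.255. UTP8 averaged 7.24 ± 0.04 with inhibitors and 7.13 ± 0.08 without (SD, n = 3 each; adjusted p = 0.132 in limma). Its adjusted p was 0.0331 without no-inhibitor replicate 1 (log2 fold change 0.16), its only call under the 14 alternatives, and reached 0.295 in the others. UTP5 had a difference of 0.09 (95% interval -0.06 to 0.25) and UTP15 of 0.01 (-0.08 to 0.10). NAN1, also known as UTP17, had -0.0041 (-0.20 to 0.19) and UTP9 had -0.02 (-0.17 to 0.13). UTP4 was the least precisely measured member, at -0.08 with an interval of -0.32 to 0.16. Its inhibitor arrays read 7.95, 8.23 and 8.24, so replicate 1 stood apart from the other two, against 8.22, 8.12 and 8.31 without inhibitors.

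UtpB follows UtpA onto the spacer and contacts the U3 snoRNA. Of its 6 genes 1 was called lower (22.3% of all genes) and none higher (19.9% of all genes). UTP21, which encodes a WD-repeat protein, gave 7.45, 7.51 and 7.43 with inhibitors, against 7.73, 7.62 and 7.73 without. Every inhibitor array lay below every array without inhibitors, with a gap of 0.11. The log2 fold change was -0.23 (SE 0.04, adjusted p = 0.0098 in limma). The remaining UtpB genes lay close to 0. UTP6 stood at 0.07 (adjusted p = 0.158, and 0.0331 without inhibitor replicate 1, where its difference was 0.10). It was called under 1 of 14 alternatives, and its adjusted p reached 0.347. PWP2 had 0.02 (95% interval -0.12 to 0.16) and DIP2 had -0.02 (-0.12 to 0.08). UTP18, whose protein brings the exosome helicase Mtr4 to the spacer, had -0.02 (-0.09 to 0.06). UTP13 had -0.06 (adjusted p = 0.209), and -0.10 without no-inhibitor replicate 2 (adjusted p = 0.0351). UTP13 too was called under 1 of 14 alternatives, and its adjusted p reached 0.449.

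The box C/D proteins coat the U3 snoRNA and the many snoRNAs that guide methylation of ribosomal RNA. None of the 5 genes was called (42.2% of all genes), and their median difference was 0.05. NOP1, the yeast fibrillarin gene for the methyltransferase itself, gave 10.31, 10.41 and 10.34 with inhibitors, against 10.51, 10.38 and 10.44 without. The groups overlapped, with inhibitor replicate 2 above replicate 2 without inhibitors. Its log2 fold change was -0.09 (95% interval -0.21 to 0.02, adjusted p = 0.149 in limma). SNU13, whose protein binds the kink-turn of the snoRNA and also serves in the spliceosome, gave 11.24, 11.29 and 11.27 with inhibitors, against 11.23, 11.20 and 11.32 without. The inhibitor arrays fell inside the range of the others, and the difference was 0.02 (-0.08 to 0.11). RRP9, the protein gene specific to U3, gave 7.69, 7.76 and 7.78 with inhibitors, against 7.74, 7.72 and 7.63 without. These ranges overlapped as well, with a difference of 0.05 (-0.05 to 0.15). The paired scaffold protein genes NOP56 and NOP58 had differences of 0.09 (-0.10 to 0.29) and 0.05 (-0.04 to 0.15).

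The Mpp10 module helps U3 base-pair with the precursor and joins its parts near the cleavage sites. Of its 4 genes 3 were called higher (19.9% of all genes) and none lower (22.3% of all genes). The count called higher was 2 where SAS10 lost its call with 1 array left out. The groups by role were drawn up with earlier results of these data known, and the module as a whole was not tested. MPP10, the scaffold of the module, gave 6.17, 6.12 and 6.10 with inhibitors, against 5.90, 5.75 and 5.88 without. All inhibitor arrays lay above the others, by at least 0.20. The difference was 0.29 (SE 0.05, adjusted p = 0.00641 in limma), a 1.22-fold rise. IMP3, which binds U3 and the precursor, gave 7.57, 7.72 and 7.60 with inhibitors, against 7.42, 7.37 and 7.38 without. Here too the groups were separate, with inhibitor replicate 2 the highest. IMP3 rose by 0.24 (SE 0.05, adjusted p = 0.0119).

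SAS10, also known as UTP3, gave 7.26, 7.29 and 7.31 with inhibitors, against 7.20, 7.11 and 7.07 without. The groups were separated by 0.06, less than the SD of 0.07 without inhibitors. The difference was 0.16 (SE 0.04, adjusted p = 0.0226). It was no longer called when inhibitor replicate 2 or 3 was left out (adjusted p = 0.0663 and 0.0704), or no-inhibitor replicate 2 or 3 (0.0695 and 0.0526). IMP4, a Brix-domain protein gene that partners IMP3, gave 7.77, 7.83 and 7.93 with inhibitors, against 7.87, 7.80 and 7.68 without. Its groups overlapped (difference 0.06, 95% interval -0.10 to 0.22, adjusted p = 0.475).

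**Figure D2:**
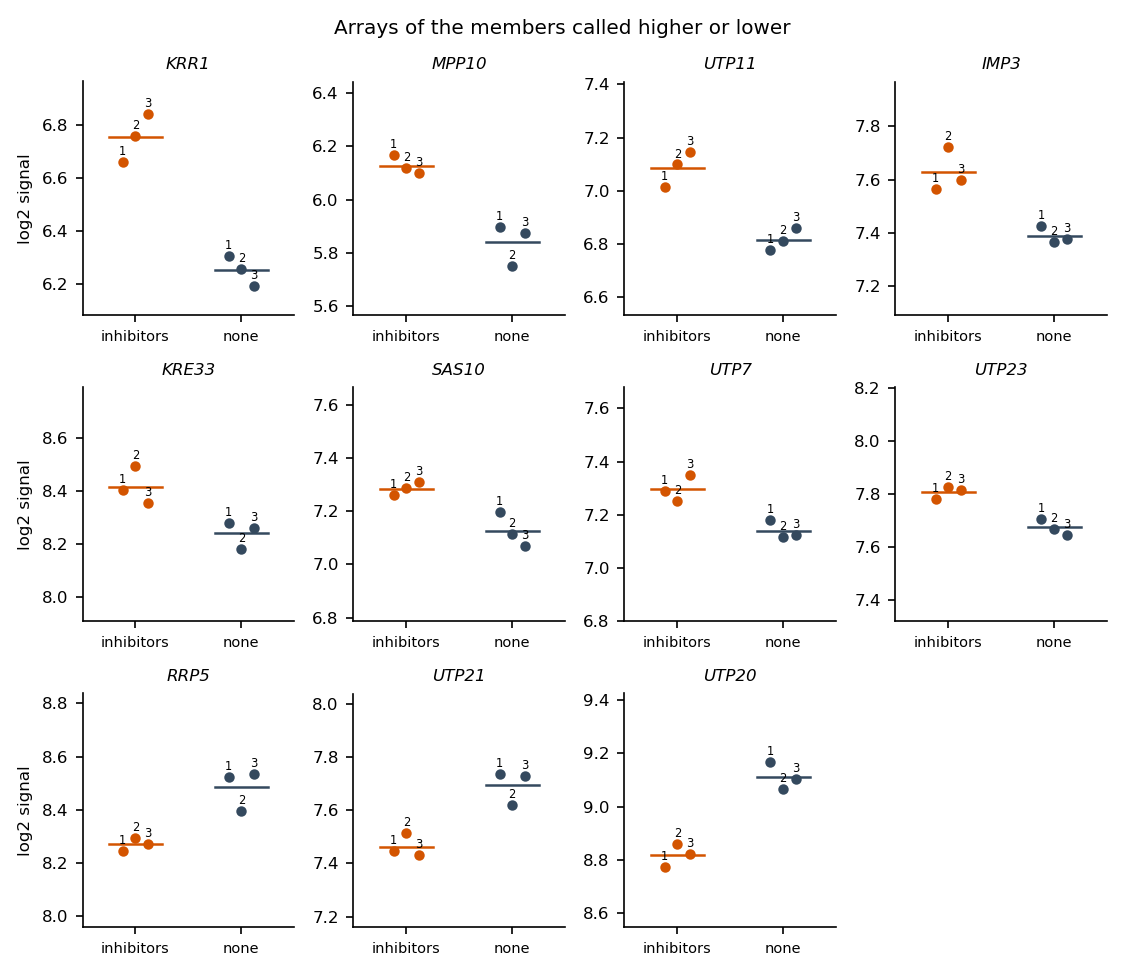
Log2 signal (vertical axis, the same span of log2 units in each panel but a different level) on every array for the 11 called members, with inhibitors on the left and without on the right. Points are replicates, numbered, and lines are group means. In all 11 panels the groups do not overlap (55.4% of all genes), with KRR1 the most widely separated. The panels were chosen by calls on these same arrays, which favours separated groups, so the separation is no further support for the calls.

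Among the enzymes and their partners 1 of 8 genes was called, in the upward direction (19.9% of all genes). KRE33, the acetyltransferase that makes N4-acetylcytidine in 18S rRNA, gave 8.40, 8.49 and 8.35 with inhibitors, against 8.28, 8.18 and 8.26 without. The groups did not overlap, and the nearest arrays were 0.07 apart. The log2 fold change was 0.175 (SE 0.05, adjusted p = 0.0323 in limma). KRE33 was not called when inhibitor replicate 1 or 2 was left out (adjusted p = 0.0677 and 0.0694), or any 1 of the no-inhibitor replicates (0.0574, 0.087 and 0.0706 for replicates 1, 2 and 3).

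ECM16, the DEAH-box helicase gene also called DHR1, was the member nearest to 0. It gave 7.043, 7.079 and 7.052 with inhibitors, against 7.069, 7.114 and 6.998 without. The inhibitor arrays lay within the range of the others (difference -0.0022, 95% interval -0.09 to 0.09). UTP14, whose protein activates that helicase, averaged 7.92 ± 0.07 with inhibitors and 7.82 ± 0.02 without (SD, n = 3 each). Its groups did not overlap, yet the difference of 0.11 was not called (adjusted p = 0.0908). DHR2, a second DEAH-box helicase gene, had 0.01 (-0.14 to 0.16). EMG1, which methylates a pseudouridine of 18S rRNA, had -0.03 (-0.09 to 0.03), and its binding partner NOP14 had -0.02 (-0.15 to 0.12). The GTPase gene BMS1 had -0.07 (-0.20 to 0.05), and RCL1, which encodes its cyclase-like partner, had -0.02 (-0.09 to 0.05).

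The other assembly factors were the most divided group, with 4 of 13 genes called higher (19.9% of all genes) and 2 lower (22.3% of all genes). KRR1, a KH-domain RNA-binding protein gene, gave 6.66, 6.76 and 6.84 with inhibitors, against 6.31, 6.26 and 6.20 without. Every inhibitor array lay at least 0.35 above every other, the widest gap of any member. The difference was 0.50 (SE 0.06, 95% interval 0.36 to 0.64, adjusted p = 0.0022 in limma), a 1.41-fold rise. UTP11 gave 7.01, 7.10 and 7.14 with inhibitors, against 6.78, 6.81 and 6.86 without. Its groups were likewise separate, and the gene rose by 0.27 (SE 0.04, adjusted p = 0.00604).

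UTP7, a WD-repeat protein gene, gave 7.29, 7.25 and 7.35 with inhibitors, against 7.18, 7.12 and 7.12 without. The ranges did not overlap, and the log2 fold change was 0.16 (SE 0.03, adjusted p = 0.0169). It was not called when no-inhibitor replicate 2 or 3 was left out (adjusted p = 0.0566 and 0.0552). UTP23, a PIN-domain-like protein gene needed at the snR30 site, averaged 7.81 ± 0.02 with inhibitors and 7.67 ± 0.03 without (SD, n = 3 each). It rose by 0.13 (SE 0.03, adjusted p = 0.0107), a small change between tight groups.

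The largest fall among the members was that of UTP20, a large HEAT-repeat protein gene, which gave 8.77, 8.86 and 8.82 with inhibitors, against 9.17, 9.07 and 9.10 without. All inhibitor arrays lay below the others, with a gap of 0.21. The difference was -0.30 (SE 0.04, 95% interval -0.39 to -0.20, adjusted p = 0.00338 in limma), a ratio of 0.815. RRP5, an RNA-binding protein gene required for both ribosomal subunits, gave 8.24, 8.29 and 8.27 with inhibitors, against 8.52, 8.40 and 8.53 without. The inhibitor arrays were close to each other and all lower, and the difference was -0.21 (SE 0.04, adjusted p = 0.0134).

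SOF1, a WD-repeat protein gene, lay just outside the threshold. It gave 7.29, 7.48 and 7.44 with inhibitors, against 7.65, 7.54 and 7.60 without. The groups did not overlap, and the difference of -0.19 had an adjusted p of 0.051 in limma. SOF1 was called lower under 4 of 14 alternatives, and the adjusted p over all 14 ran from 0.0268 to 0.14. UTP30, a ribosomal L1-domain protein gene, was also not called although its groups were separate (difference 0.07, adjusted p = 0.0688). It was called under 1 of the 14 alternatives, quantile normalization (adjusted p = 0.0383), and its adjusted p reached 0.211. ENP2 had 0.08 (adjusted p = 0.254), and without inhibitor replicate 1 it had 0.14 (adjusted p = 0.0201). That was its only call under the 14 alternatives, and its adjusted p reached 0.512.

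The last 4 of these factors lay near 0. ENP1, which stays on the particle into the cytoplasm, had a difference of 0.05 (95% interval -0.05 to 0.14). BFR2 and LCP5 each had 0.03 (-0.09 to 0.14 for BFR2 and -0.07 to 0.12 for LCP5), and UTP22, which forms the UtpC complex with Rrp7, had -0.04 (-0.16 to 0.09).

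Within each group, many members were high or low on the same array. Inhibitor replicate 1 gave the lowest signal of the inhibitor arrays for 34 of 43 members, or 79.1%, against 37.1% of all genes. Without inhibitors, replicate 1 gave the highest signal for 28 members (65.1%, against 43.3% of all genes) and replicate 2 the lowest for 27 (62.8%, against 42.1%). The members' median deviation from the group mean was -0.038, 0.024 and 0.017 on inhibitor replicates 1, 2 and 3. On the replicates without inhibitors it was 0.039, -0.042 and -0.005. The same medians over all genes stayed between -0.0082 and 0.0128. The 72 large subunit assembly factors showed a like order, with medians of -0.049, 0.024 and 0.026 with inhibitors and 0.028, -0.026 and -0.0095 without. The members' median fold change between groups moved with these arrays, to 0.0479 without inhibitor replicate 1, to 0.0069 without inhibitor replicate 2 and to 0.0403 without no-inhibitor replicate 1. It was 0.0148 without inhibitor replicate 3 and 0.0147 without no-inhibitor replicate 3. Without no-inhibitor replicate 2 it also lay within the span of 0.0069 to 0.0479. RNA quality was not measured here, and its part in this pattern was not tested.

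**Figure D3:**
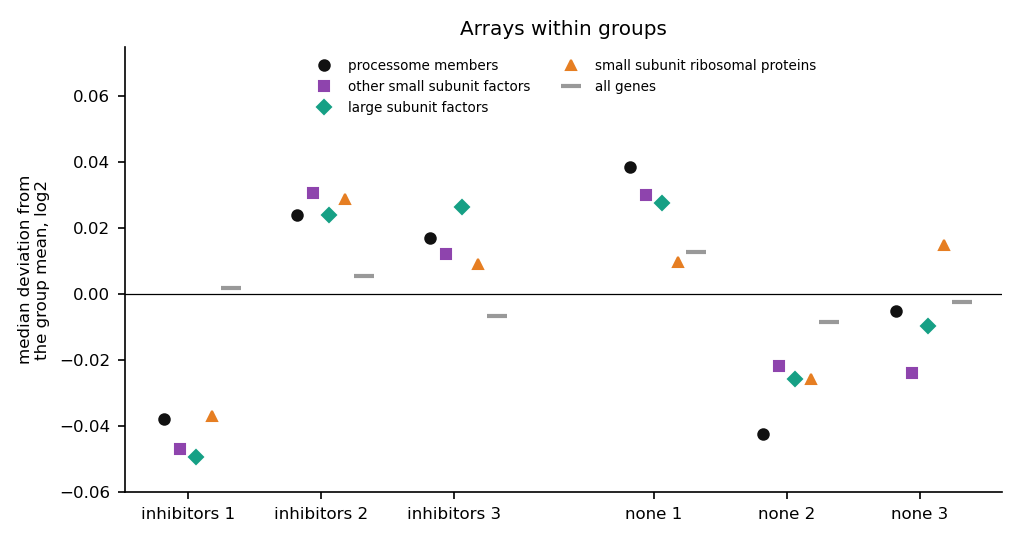
Median deviation of each array from its group mean (vertical axis, log2 units) for the 43 processome members, 3 other lists and all genes, with the 3 inhibitor arrays on the left and the 3 arrays without inhibitors on the right. The members lie below 0 on inhibitor replicate 1 (-0.038) and above 0 on no-inhibitor replicate 1 (0.039), and all genes stay near 0.

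The rest of the ribosome assembly pathway was read from 7 further lists, against a background of 19.9% of all genes called higher and 22.3% called lower. Of 41 other small subunit assembly factors 15 were called higher and 5 lower, with a median difference of 0.08. The largest rises were those of CMS1, which encodes a protein found in early preribosomes (0.80, SE 0.06, adjusted p = 0.000914), ESF1 (0.47), RRP36 (0.43) and RRT14 (0.41). CMS1 gave 8.01, 8.17 and 8.25 with inhibitors, against 7.35, 7.34 and 7.36 without, and its inhibitor arrays all lay far above the others. The 5 called lower, which were named after their values were seen, were the kinase gene HRR25 (-0.32), NOC4 (-0.27), NSR1 (-0.19), FAL1 (-0.14) and RRP3 (-0.09). This count of 5 was 2 without no-inhibitor replicate 1 and 3 without any 1 of the other arrays.

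Of 72 large subunit assembly factors 29 were called higher and 3 lower, and their median difference was 0.12. LOC1, NOP15, NSA1 and RPF1 led with 0.54, 0.53, 0.50 and 0.45. Without inhibitor replicate 2 the count called higher was 19. The 3 called lower, also named after their values were seen, were the helicase genes DBP7 (-0.38) and DBP3 (-0.19) and the AAA-type ATPase gene REA1 (-0.15). This count was 1 without inhibitor replicate 3 or no-inhibitor replicate 1.

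RNA polymerase I transcribes the precursor that the processome works on. Of 18 genes for its subunits and initiation factors 7 were called higher and 1 lower. RPC19, a subunit shared with RNA polymerase III, and RPA12 rose by 0.36 and 0.34, UAF30 of the upstream activating factor rose by 0.24, and RRN6 of the core factor had -0.35 (adjusted p = 0.00365). The list's median was 0.10, and its count called lower was 2 without inhibitor replicate 2 or no-inhibitor replicate 1. Of 18 exosome and nuclease genes, which degrade and trim the spacers, 5 were called higher and none lower. LRP1, the cofactor of the nuclease Rrp6 that is also named RRP47, stood out with 0.74 (SE 0.04, adjusted p = 0.000479). It gave 8.24, 8.33 and 8.36 with inhibitors, against 7.61, 7.59 and 7.52 without, so the groups were far apart. SKI6, RRP46 and RRP40 had 0.23, 0.14 and 0.13, and RRP6 itself had 0.08. The count of 5 was 2 without inhibitor replicate 2, inhibitor replicate 3 or no-inhibitor replicate 3, and 3 without no-inhibitor replicate 1.

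Box H/ACA proteins bind the snoRNAs that guide pseudouridines, and the chaperones listed with them build snoRNPs. Of 13 such genes 4 were called higher and 3 lower. RVB2, NHP2 and RVB1 rose by 0.19, 0.14 and 0.13, and SHQ1, an assembly chaperone gene, had -0.32 (adjusted p = 0.0227). The count called lower was 0 without inhibitor replicate 2 or no-inhibitor replicate 1, and 1 without any other array. Of 52 measured genes for cytosolic small subunit ribosomal proteins 5 were called higher and 2 lower, with a median of 0.0149. The count called higher was 8 without inhibitor replicate 1 and 3 without no-inhibitor replicate 2 or 3, and the count called lower was 1 without inhibitor replicate 2 or 3 or no-inhibitor replicate 1 or 2. RPS14B gave 9.64, 9.67 and 9.72 with inhibitors, against 10.37, 10.29 and 10.44 without, and its difference was -0.69 (SE 0.04, adjusted p = 0.000578). Its near-identical paralog RPS14A, added after its values were seen, had a difference of -0.01 (adjusted p = 0.772), and signal shared between such copies cannot be separated here. RPS9A, RPS7B and RPS26B rose by 0.27, 0.18 and 0.16.

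**Figure D4:**
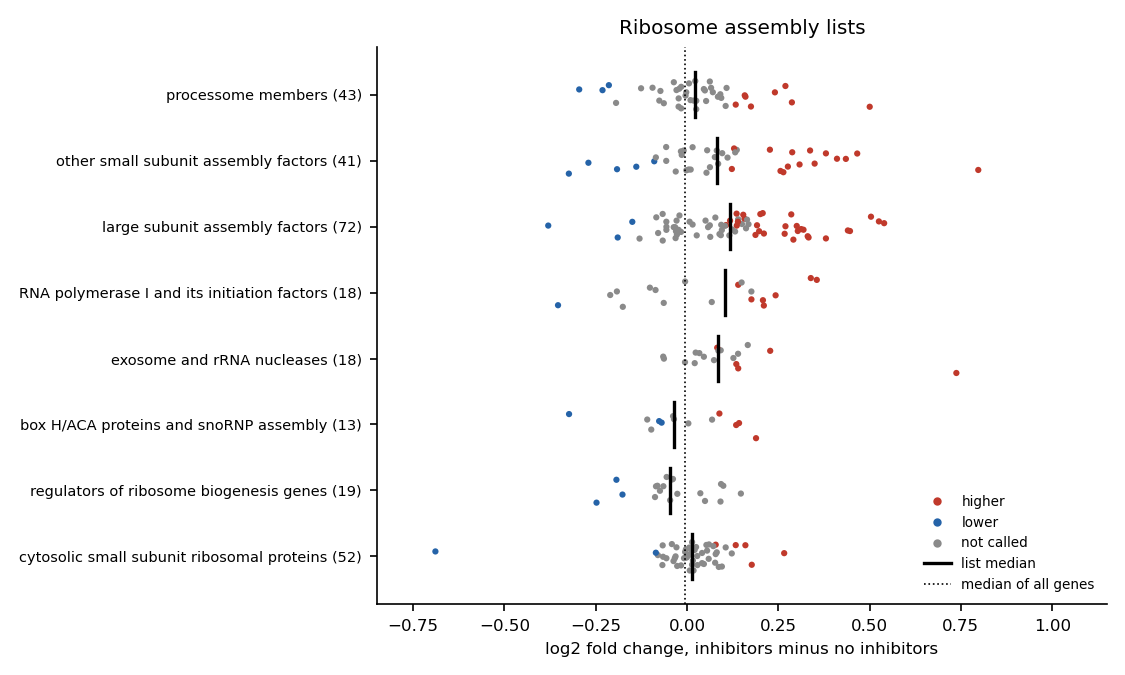
Log2 fold change (inhibitors minus no inhibitors, horizontal axis) of every gene in the processome list and in 7 other ribosome assembly lists, with the number of genes in parentheses. Colours mark calls, black bars list medians, and the dotted line the median of all genes (-0.0068). The processome median lies at 0.0225 and that of the large subunit factors at 0.12.

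Regulators of these genes were not called higher in the main fit. Of 19 regulators 3 were called lower (22.3% of all genes) and none higher (19.9% of all genes) by limma. In either direction 4 of the 19 had an unadjusted p under 0.05, against 2788 of all 5449 genes. SCH9, a growth kinase gene downstream of the TOR complex, had -0.25 (adjusted p = 0.0348), TOR1 had -0.19 (0.0238) and DOT6, a repressor of ribosome biogenesis genes, had -0.18 (0.0253). The count called lower was 0 without inhibitor replicate 2 or 3 and 1 without no-inhibitor replicate 3. Fewer genes were also called over the whole table in every fit with an array left out. Whether these lost calls depend on the array left out was not tested. Without no-inhibitor replicate 2, 1 regulator was called higher, and 1 was called higher after quantile normalization. DOT6 gave 7.44, 7.42 and 7.43 with inhibitors, against 7.60, 7.53 and 7.69 without, and its groups did not overlap. Its paralog TOD6 had 0.09 (adjusted p = 0.196), the repressor gene STB3 had 0.15 (0.0789) and the activator gene SFP1 had -0.09 (0.316).

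The share of members next to other genes of these lists was near that of genes outside the lists. In the RefSeq gene order, 5 of 43 members (11.6%) had a neighbour on one of the lists, against 508 of 5741 protein-coding genes outside them (8.85%). They were UTP6 beside RPS18A, LCP5 beside NSA2, UTP9 beside RIX1, RRP5 beside RPS10B, and UTP13 between RSA3 and IFH1. Of these 5 members RRP5 alone was called, and of their neighbours RSA3 alone, where 42.2% of all genes were called. No member and neighbour were both called, but the pairs are too few to read this as a result. RSA3 was called higher (0.27, adjusted p = 0.0103) beside UTP13 (-0.06), and RRP5 was called lower beside RPS10B (0.12, adjusted p = 0.111).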

How the data were processed

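Per the labels' protocols, total RNA of each of 6 cultures was biotin-labelled with a 3'IVT expression kit and hybridised to its own Affymetrix array. The deposited values are log2 signals, made by the authors with GCRMA, per the submitters' processing notes, which also name limma. GCRMA uses probe sequence to correct background and puts the arrays on a common scale. Their versions and a genome build are not given in the labels.

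Of 10762 probe sets, 5498 carried 1 S. cerevisiae gene (1746 fission yeast, 1 several genes, 3517 unlisted). The set with the highest mean was kept for each of 5449 genes. Names were updated through the RefSeq table of assembly R64 by Entrez ID (12 changed), and that table gave names and gene order alone. Background was the 95th percentile of fission yeast probe sets on each array (2.22). This lies close to the lowest value deposited (2.21), so lying above it is a weak condition.

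The comparison used limma 3.58.1 (R 4.3.3), two-sided, with empirical Bayes moderation and group as the single factor. The fit was tested on simulated data. The number of arrays limits the precision. Text names every member, with array values for the 10 largest called, those called lower, NOP1, SNU13, RRP9 and ECM16 (the member nearest 0), and names up to 4 called genes of each pathway list plus 4 regulators. Array values of UTP10, UTP4, IMP4 and SOF1 were added after their values were seen, and other genes outside this rule are marked. The rule for members uses symbols alone, but members, lists and tests were chosen with earlier results of these data known, so they are not independent of the data. Alternatives covered normalization, dim genes, variance moderation, array weights, a block on replicate number, probe sets, the threshold and each array left out. Planned searches for promoter motifs were not run, because no sequence was used here. Figures were drawn with matplotlib 3.10.9.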

Additional observations from a re-analysis of the deposited data

How the results depend on the processing

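No called member changed sign under any of the 14 alternatives run on each member. Some of these could not move a member's fold change, so its sign was fixed there. They were dim genes left out, variance moderation, the replicate block and the choices of probe set, as each member had 1 probe set. Array weights and leaving out 1 array could not turn the sign of a called member either, because its groups did not overlap. Only the changes of normalization could have turned it. KRR1, MPP10, UTP11 and UTP20 kept their calls under all 14 alternatives, and the calls of IMP3, UTP23, RRP5 and UTP21 were lost under the replicate block alone. The samples share a number and no stated pairing: deviations of same-numbered arrays correlated at -0.22, -0.25 and -0.20 across genes, each the lowest for its inhibitor array. With the replicate block 3 members were higher and 1 lower, and 774 and 810 genes of all, where fewer residual degrees of freedom are left. At an adjusted p under 0.01 there were 3 members higher and 2 lower, and 608 and 582 genes. Leaving out 1 array at a time gave 5 to 9 members higher and 3 to 5 lower, and 855 to 1023 and 868 to 1117 genes. The members' median stayed above 0, between 0.0069 and 0.0479. The sign turned in 14 of the 32 members not called, all with small values, and the cause was not tested. Under quantile normalization ECM16 had 0.0298, RCL1 0.0037, UTP9 0.0020 and DIP2 0.0018. Under array weights UTP15 had -0.0148 and NAN1 0.0293. Without 1 array, ranges were -0.0335 to 0.0247 for ECM16, -0.07 to 0.0289 for UTP9, -0.0601 to 0.0045 for DIP2, -0.0263 to 0.0296 for UTP15, -0.067 to 0.0534 for NAN1, -0.0551 to 0.0262 for NOP14, -0.0691 to 0.009 for UTP22, -0.1254 to 0.0191 for UTP4, -0.009 to 0.0614 for BFR2, -0.0192 to 0.0601 for PWP2, -0.0356 to 0.0552 for DHR2, -0.0005 to 0.0539 for LCP5 and -0.0078 to 0.0531 for SNU13. Under the replicate block the Mpp10 module had 1 higher, the large subunit factors 17 higher and 1 lower, other small subunit factors 1 lower, RNA polymerase I 4 higher, the exosome 3 higher, box H/ACA 1 higher and 0 lower, the regulators 0 lower and ribosomal proteins 1 lower.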
